A study of Mus musculus with 24 samples.

Results

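This comparison asked how loss of the IL-4 receptor alpha chain from intestinal epithelial cells (IECs) changed gene expression in sorted CD45- cells of HOIL1-deficient ileum. It rests on 6 of the 24 RNA-Seq libraries, all from live CD45- cells sorted from the ileum of C57BL/6 mice: 3 of *Hoil1*-/-*Il4ra*flox/flox mice (f/f, mice 9.4, 9.4 and 9.9 weeks old) and 3 of *Hoil1*-/-*Il4ra*flox/flox+*Vil1*cre mice (ΔIEC, 9.6, 9.6 and 9.1 weeks old), chosen by the fraction and genotype in their labels. Both groups carried a mutation of *Rbck1*, the gene of HOIL1, that leaves a low level of the protein's N-terminal part, and both carried *Il4ra* flanked by loxP sites. The ΔIEC mice also carried Cre under the villin promoter, which is active in the intestinal epithelium, so cells outside the epithelium were left with *Il4ra*. Before sorting, part of the detached IECs had been mixed back with the digested lamina propria, and the CD45- gate could therefore hold epithelial, endothelial, stromal and nerve-associated cells together. The third f/f library, number 23, was left out by the study as an outlier, and the main results are given without it (11 CD45- libraries in the fit) and with it (12). Levels are CPM (counts scaled to a total of 1000000 per library, with TMM factors between libraries). The values of 3 libraries are listed in the order of replicates 1, 2 and 3. The third value of the CD45- *Hoil1*-/- f/f group is that of library 23. Where CD45+ libraries of these genotypes are given, those left out by the study are f/f replicate 1 and ΔIEC replicate 3.

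IL-4 and IL-13 share a receptor built from IL4Rα and a partner chain, and they signal in the cell through JAK kinases and STAT6. In the small intestine, IL-13 from innate lymphoid cells and T cells acts on epithelial progenitors and favors goblet and tuft cells. Tuft cells are rare chemosensory epithelial cells that use taste-type signaling and release IL-25 and leukotrienes, which stimulate the same lymphoid cells and close a feed-forward circuit.

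*Rbck1* (chromosome 2, 152316334 to 152332653, minus strand, GRCm38) was at 3.2, 7.93 and 0 CPM in f/f libraries and at 4.83, 7.9 and 3.63 CPM in ΔIEC libraries, against 84.2 to 122 CPM in the 6 CD45- libraries of *Hoil1*+/+ mice. *Il4ra* (chromosome 7, 125552120 to 125579474, plus strand) was at 67.7, 89.8 and 77.1 CPM in f/f and 145, 99.9 and 74.4 CPM in ΔIEC libraries. The *Il4ra* groups overlapped (log2 fold change for ΔIEC minus f/f 0.44, standard error, SE, 0.52, adjusted p = 0.672, edgeR quasi-likelihood test). Reads were summed over the whole gene and over every CD45- cell type, so the loss of the floxed part in IECs cannot be read from them. *Vil1*, whose promoter drives the Cre, was at 1776, 1146 and 231 CPM in f/f and 197, 87.1 and 461 CPM in ΔIEC libraries.

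The cell content differed between the libraries and, in part, with the genotype. The 6 libraries held 6.03 to 30.1 M counts each. The 8 pan-epithelial markers (among them *Epcam*, *Cdh1* and *Krt8*) summed to 10983, 9299 and 3693 CPM in f/f and 2757, 1272 and 5835 CPM in ΔIEC libraries. All 8 were lower in every ΔIEC library than in f/f replicates 1 and 2, and 1 of 8 was lower than in all 3 f/f libraries (16.3% and 4.92% of all genes tested). The 12 blood endothelial markers summed to 3267, 6100 and 11184 CPM and to 18223, 21424 and 8943 CPM, and the 10 fibroblast markers to 575, 3153 and 9867 CPM and to 8146, 10877 and 3396 CPM. Library 23 stood apart from the other f/f libraries, with more erythroid RNA (27011 CPM against 2397 to 7116 CPM in the other 5 libraries) and 2650 CPM of enterocyte markers against 45325 and 31204 CPM. Replicate 1 and library 23 of the f/f group had the fewest genes with a count, 13540 and 13003, against 14602 to 16425 in the other 4 libraries. Y-linked transcripts did not exceed a summed 10 CPM (before TMM) in library 23 and in ΔIEC replicate 2. With library 23 left out, both f/f libraries were thus above this cutoff and ΔIEC replicate 2 was not. *Ptprc*, which encodes CD45, was at 11.8, 17.9 and 4.53 CPM in f/f and 2.15, 0.444 and 0.495 CPM in ΔIEC libraries, against 228 to 557 CPM in the CD45+ libraries of the same genotypes. It was thus lower in every ΔIEC library than in all 3 f/f libraries (log2 fold change -3.82, SE 1.94, adjusted p = 0.319, edgeR). Leukocytes also express some tuft list genes, among them *Lrmp*, *Spib*, *Alox5*, *Alox5ap* and *Inpp5d*, and the part of leukocyte RNA in their values was not tested. In bulk RNA, fewer cells of a type and less RNA per cell cannot be told apart, and the part of cell content in the results below was not tested except where a value scaled to epithelial counts is given.

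**Figure D1:**
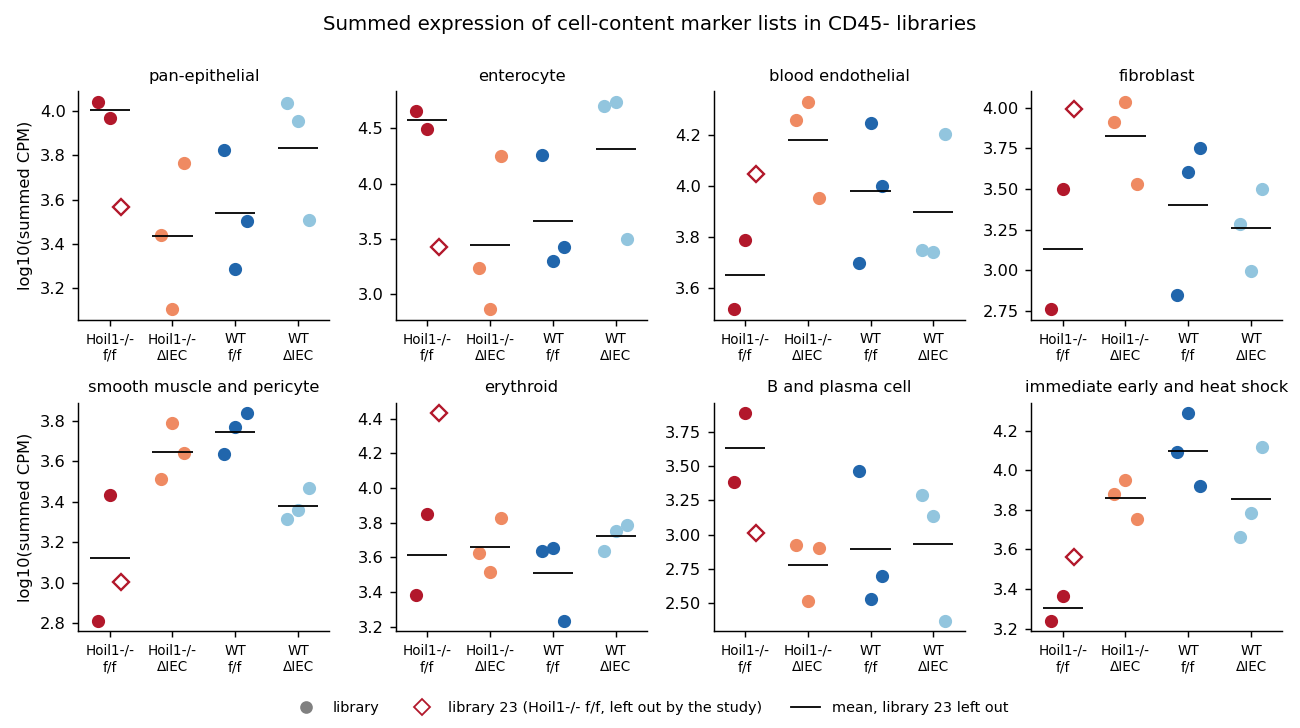
Each panel plots the summed CPM of 1 marker list on a log10 axis for the 12 CD45- libraries, by genotype; points are libraries, the open diamond is library 23 and lines are means without it. The pan-epithelial sum is 10983 and 9299 CPM in f/f replicates 1 and 2 and 1272 to 5835 CPM in ΔIEC libraries, and library 23 has the highest erythroid sum.

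With library 23 left out, 7 of 16453 genes passed an adjusted p under 0.05 and all 7 were lower in ΔIEC cells. They were *Trpm5*, *Lrmp*, *Matk*, *Ptpn18*, *Avil*, *Sh2d6* and *Snrnp25*, and the first 6 belong to lists of tuft cell genes. These 7 are 0.0425% of the genes tested, and 0 genes passed in the other direction. At an unadjusted p under 0.05, 1277 genes (7.76%) were lower and 1627 (9.89%) were higher. With library 23 included, none of 15332 genes passed in either direction in the quasi-likelihood test, where 683 (4.45%) were lower and 1088 (7.10%) higher at an unadjusted p under 0.05. DESeq2 over the same 12 libraries called 127 genes lower (0.828%) and 183 higher (1.19%), and edgeR's likelihood ratio test called 46 (0.300%) and 127 (0.828%). Over the 11 libraries DESeq2 called 484 lower (2.94%) and 697 higher (4.24%), the likelihood ratio test 317 lower (1.93%) and 339 higher (2.06%), and edgeR's exactTest 229 lower (1.39%) and 161 higher (0.979%). Each of these sets of calls held all 7 genes. Leaving out ΔIEC replicate 1 or 2 ended all 7 calls, and so did leaving out ΔIEC replicate 3, where *Gip* alone passed.

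*Trpm5* (chromosome 7, 143069153 to 143094642, minus strand) encodes the cation channel that opens at the end of taste-type signaling in tuft cells. It was at 237, 251 and 3.07 CPM in f/f libraries and at 14.4, 7.18 and 14.7 CPM in ΔIEC libraries. The f/f replicates 1 and 2 were above every ΔIEC library, and library 23 was below every one of them. The effect was -4.34 on the log2 scale (SE 0.43, adjusted p = 0.0120, edgeR quasi-likelihood test) without library 23 and -3.77 (adjusted p = 0.380) with it.

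*Lrmp* (chromosome 6, 145115653 to 145174934, plus strand), which encodes a membrane protein of the endoplasmic reticulum also found in lymphocytes, was at 71.8, 121 and 9.74 CPM in f/f and 3.73, 3.02 and 3.79 CPM in ΔIEC libraries. All 3 f/f libraries were above all ΔIEC libraries. The effect was -4.79 on the log2 scale (SE 0.56, adjusted p = 0.0301, edgeR) without library 23 and -4.27 (adjusted p = 0.227) with it. *Snrnp25* (chromosome 11, 32205415 to 32208984, plus strand), which encodes a protein of the minor spliceosome and is on no tuft list used here, behaved in the same way. Its levels were 62.8, 106 and 30.5 CPM in f/f and 9.87, 3.51 and 5.28 CPM in ΔIEC libraries, a log2 difference of -3.76 (SE 0.51, adjusted p = 0.0401, edgeR) that became -3.42 (adjusted p = 0.227) with library 23.

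In the other 4 genes library 23 lay within or close to the ΔIEC range. *Matk*, which encodes a kinase that acts on Src family kinases, was at 192, 186 and 0 CPM in f/f and 1.57, 0.968 and 3.13 CPM in ΔIEC libraries (log2 fold change -6.73, SE 0.85, adjusted p = 0.0401, edgeR). *Avil*, which encodes the actin-binding protein advillin of the tuft cell's microvilli, was at 157, 222 and 8.14 CPM and at 13.2, 8.47 and 14.4 CPM (log2 fold change -3.99, SE 0.54, adjusted p = 0.0401, edgeR). *Sh2d6*, an SH2 domain adaptor gene, was at 151, 245 and 4.4 CPM and at 9.66, 1.65 and 4.78 CPM (log2 fold change -5.20, SE 0.73, adjusted p = 0.0461, edgeR). *Ptpn18*, a phosphatase gene, was at 125, 221 and 25.9 CPM and at 26, 23 and 39.8 CPM (log2 fold change -2.56, SE 0.34, adjusted p = 0.0401, edgeR). For these 4 the fold changes with library 23 were between -6.13 for *Matk* and -2.07 for *Ptpn18*, each with an adjusted p of 0.380.

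**Figure D2:**
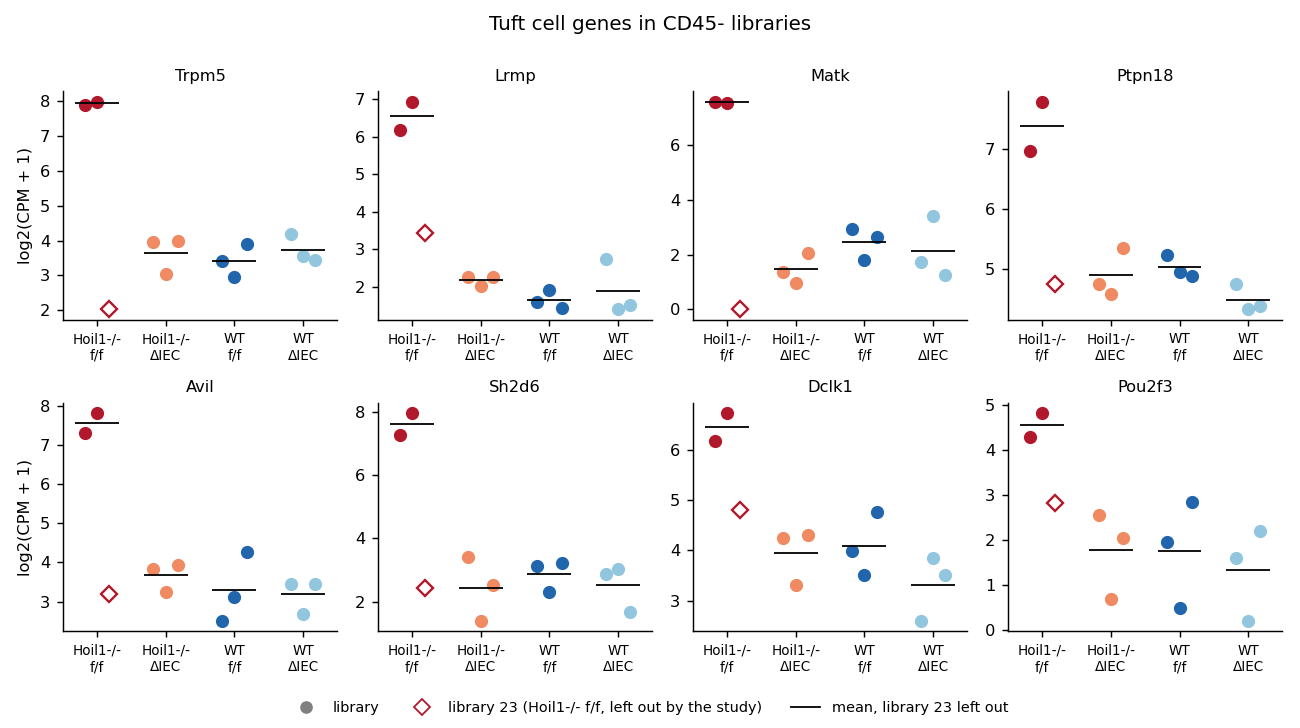
Each panel plots log2(CPM + 1) of 1 tuft cell gene in the 12 CD45- libraries, by genotype, with means without library 23 as lines. Replicates 1 and 2 of the *Hoil1*-/- f/f group sit above all ΔIEC libraries in every panel, while library 23 (open diamond) is within or below the ΔIEC range for *Trpm5*, *Matk*, *Ptpn18*, *Avil* and *Sh2d6*.

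Beyond the genes that passed, most members of the tuft lists were higher in f/f replicates 1 and 2 than in ΔIEC libraries. Of 43 genes in the 4 lists, 42 were in the table and 39 passed the filter on low counts. The lists were chosen with earlier results of these data known, so the shares that follow are not independent evidence. Among the 42, 31 were lower in every ΔIEC library than in f/f replicates 1 and 2, against 16.3% of all genes tested, and 12 of 42 were lower than in all 3 f/f libraries, against 4.92%. The median log2 fold change of the tested members was -3.99 without library 23 and -3.42 with it, beside medians of 0.17 and 0.09 for all genes. Without library 23, 28 of the tested members had an unadjusted p under 0.05, all lower, and 6 passed the adjusted threshold. DESeq2 called 20 of them lower in the 11 libraries and 16 in the 12 libraries, and 0 higher in either.

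Of the 5 transcription factors of the tuft lineage, none passed. *Pou2f3*, the factor without which tuft cells do not form, was at 18.6, 27 and 6 CPM in f/f and 4.88, 0.605 and 3.13 CPM in ΔIEC libraries. All 3 f/f values were above all ΔIEC values, a log2 difference of -2.99 (SE 1.24, adjusted p = 0.261, edgeR). *Spib*, an ETS factor shared with M cells and B cells, was at 31.7, 81.3 and 18.5 CPM and at 7.3, 2.14 and 2.47 CPM (log2 fold change -3.82, SE 0.98, adjusted p = 0.184, edgeR). *Gfi1b*, a zinc finger repressor also used in blood cells, was at 5.58, 18.9 and 0 CPM in f/f libraries and had no count in any ΔIEC library. Against a floor of 3 counts per library, *Gfi1b* in ΔIEC libraries was at least 47.6-fold below the mean of f/f replicates 1 and 2. It was at least 31.7-fold below the mean of all 3 f/f libraries. Because f/f replicate 3 had no count either, *Gfi1b* did not separate the groups once that library was included. *Hmx2* was at 15.9, 16.5 and 0 CPM and at 0.21, 0.766 and 0.66 CPM.

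Of the taste pathway, *Plcb2*, the phospholipase between the G protein and the calcium store, was at 27.9, 48.4 and 16.3 CPM in f/f and 2.36, 1.45 and 0.825 CPM in ΔIEC libraries (log2 fold change -4.59, SE 1.27, adjusted p = 0.198, edgeR). The succinate receptor gene *Sucnr1*, through which tuft cells sense certain microbes, was at 4.21, 16.2 and 4.13 CPM and at 0.21, 0 and 0 CPM. Both genes separated all 6 libraries. The fatty acid receptor gene *Ffar3* was at 24.2, 31.7 and 0 CPM and at 0, 0 and 1.81 CPM. *Itpr3*, the calcium channel of the store, which many epithelia express, was at 187, 151 and 120.4 CPM and at 143, 136 and 57.9 CPM, a log2 difference of -0.59 (SE 0.36, adjusted p = 0.375, edgeR). *Gnat3* was above 1 CPM only in f/f replicate 2, at 5.06 CPM, and *Tas1r1* had no count in these 6 libraries.

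The classical marker *Dclk1*, a kinase gene, was at 71.2, 105 and 26.8 CPM in f/f and 18.1, 8.87 and 18.8 CPM in ΔIEC libraries. All 3 f/f libraries were higher, a log2 difference of -2.54 (SE 0.52, adjusted p = 0.123, edgeR) without library 23 and -2.16 (adjusted p = 0.380) with it. *Siglecf* was at 45.6, 77.8 and 0 CPM and at 3.62, 0.645 and 0.495 CPM, and the IL-25 receptor gene *Il17rb* was at 24.4, 14.9 and 0 CPM and at 0.892, 0 and 0 CPM. For both of these library 23 had no count. *Kctd12* and *Inpp5d*, which other cells of the fraction also express, overlapped between the groups, at 57.2 to 149 and 53.6 to 91.9 CPM for *Kctd12* and at 10 to 57.2 and 11.2 to 43.7 CPM for *Inpp5d*.

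Genes for tuft cell mediators differed among themselves, and none passed. *Alox5* and *Alox5ap*, which start leukotriene synthesis, were at 81.7, 93.9 and 7.87 CPM and at 54.7, 148 and 6.27 CPM in f/f libraries. In ΔIEC libraries they were at 6.19, 0.524 and 2.31 CPM and at 3.36, 1.01 and 5.94 CPM. Neither overlapped between the groups, with log2 fold changes of -4.86 (SE 1.04, adjusted p = 0.135, edgeR) and -4.94 (SE 1.01, adjusted p = 0.127, edgeR). *Ltc4s*, which makes leukotriene C4, was at 60.9, 78.1 and 14.8 CPM and at 20.9, 5.93 and 3.3 CPM. The acetylcholine synthase gene *Chat* was at 12.6, 13.1 and 0 CPM and at 0.682, 0.686 and 0 CPM. The cyclooxygenase gene *Ptgs1*, which stromal and endothelial cells also express, was the only 1 of the tested tuft list members with a positive fold change, at 62.2, 121 and 21.7 CPM and at 87.4, 125 and 111 CPM (log2 fold change 0.24, SE 0.53, adjusted p = 0.842, edgeR). *Il25* was near the limit of detection, at 0, 2.4 and 0 CPM in f/f and with no count in ΔIEC libraries, and was not tested.

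Scaled to the epithelial counts of the same library, *Trpm5* was at 21.6, 27 and 0.831 counts per 1000 pan-epithelial counts in f/f and 5.24, 5.65 and 2.52 in ΔIEC libraries. *Lrmp* was at 6.54, 13.1 and 2.64 and at 1.35, 2.38 and 0.65 on this scale and still separated all 6 libraries. *Dclk1*, which separated them in CPM, no longer did, at 6.48, 11.3 and 7.26 and at 6.55, 6.98 and 3.22. *Ptpn18*, which overlapped in CPM when library 23 was included, separated neither all 6 libraries nor f/f replicates 1 and 2 from the ΔIEC libraries, at 11.4, 23.8 and 7.01 and at 9.43, 18.1 and 6.81. Of the 42 tuft genes, 21 were lower in every ΔIEC library than in f/f replicates 1 and 2 on this scale, against 2.80% of all genes tested, and 7 were lower than in all 3 f/f libraries, against 0.724%. The sum of all 42 overlapped on this scale, at 209.7, 359 and 122 in f/f and 208, 393 and 70.6 in ΔIEC libraries, and it includes genes that other cells express, such as *Itpr3*, *Kctd12* and *Ptgs1*. With the mean log2(CPM + 1) of the pan-epithelial list as a covariate, the log2 fold change of *Trpm5* was -3.66 (adjusted p = 0.0850, edgeR) without library 23. With library 23 it was -2.49 (adjusted p = 0.913, edgeR). The median of the tuft members was -3.43 without library 23 and -2.03 with it, and no gene passed in either fit. With library sizes set to the epithelial counts, the tuft median was -2.04 without library 23 and -1.68 with it. The medians for all genes were then 2.31 and 1.59, and no gene passed.

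The promoters of the gene with the smallest p and of the classical marker are shown because most tuft genes were lower in the same libraries. They are RefSeq sequences (GRCm38.p6) from 250 bases before to 50 bases after the start, 5′ to 3′ on the gene's strand: chr7:143094593-143094892 (minus) for *Trpm5* and chr3:55242114-55242413 (plus) for the first of the *Dclk1* promoters. Capitals mark TTC, 4 bases of any kind and GAA, the spaced palindrome that STAT6 is known to bind.
Trpm5: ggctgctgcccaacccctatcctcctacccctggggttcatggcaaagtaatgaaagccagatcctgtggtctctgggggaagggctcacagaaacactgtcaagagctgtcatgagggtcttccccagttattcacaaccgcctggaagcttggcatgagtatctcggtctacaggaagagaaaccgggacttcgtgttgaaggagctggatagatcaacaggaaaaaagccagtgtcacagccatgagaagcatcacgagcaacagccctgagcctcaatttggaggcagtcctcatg
Dclk1: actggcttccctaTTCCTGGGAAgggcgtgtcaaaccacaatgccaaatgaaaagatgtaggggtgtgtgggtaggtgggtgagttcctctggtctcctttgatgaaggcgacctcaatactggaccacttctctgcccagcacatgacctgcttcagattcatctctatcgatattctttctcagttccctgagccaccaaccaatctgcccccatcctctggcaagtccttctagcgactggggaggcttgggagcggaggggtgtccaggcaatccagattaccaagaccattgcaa
The *Dclk1* match, TTCCTGGGAA, starts 237 bases before the start site. The second *Dclk1* promoter (chr3:55461478-55461777, plus strand) held no match of either motif searched. The table held 40 promoters for 35 of the 43 tuft genes. The palindrome, which reads the same on both strands, was in 8 of the 40 (20.0%) against 6.95% of all 32851 promoters. The octamer ATGCAAAT of POU factors, searched on both strands and counted separately from the palindrome, was in 4 of 40 (10.0%) against 1.74%, those of *Sucnr1*, *Hpgds*, *Kctd12* and *Itpr3*, and the *Sucnr1* promoter held both motifs. The *Trpm5* promoter held neither, which says only that these letters are not in this window. A match describes letters in a window and is not a binding site.

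The genes that epithelial cells are known to switch on in response to IL-4 and IL-13 largely separated the groups whether or not library 23 was included. None of them passed the adjusted threshold in the quasi-likelihood test. This list, too, was chosen with earlier results of these data known. Of its 18 genes, 12 passed the filter, and all 12 had negative fold changes. Among the 18, 11 were lower in every ΔIEC library than in f/f replicates 1 and 2 (16.3% of all genes), and 9 were lower than in all 3 f/f libraries (4.92%). The 11 include *Sprr2b*, with at most 0.145 CPM. The median log2 fold change was -3.72 without library 23 and -3.90 with it. DESeq2 called 5 of them lower in the 11 libraries and 6 in the 12 libraries.

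*Pla2g4c* (chromosome 7, 13324655 to 13360672, plus strand), which encodes a cytosolic phospholipase A2, was at 154, 502 and 154 CPM in f/f and 6.77, 1.53 and 8.41 CPM in ΔIEC libraries. Library 23 was as high as f/f replicate 1. The effect was -5.91 on the log2 scale (SE 1.11, adjusted p = 0.116, edgeR) and, with library 23, -5.63 (adjusted p = 0.227). DESeq2 gave adjusted p-values of 4.70e-06 and 1.08e-06 in the 11 and 12 libraries.

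*Ang4* (chromosome 14, 51763878 to 51773590, minus strand), an antimicrobial ribonuclease of Paneth and goblet cells, was at 1075, 1332 and 994 CPM in f/f libraries. In ΔIEC libraries it was at 20.2, 8.15 and 199.8 CPM. The lowest f/f library was thus above the highest ΔIEC library. The adjusted p was 0.207 without library 23, and with it the log2 fold change was -3.90 (adjusted p = 0.422, edgeR). *Clca1* (chromosome 3, 145003817 to 145032776, minus strand), a secreted regulator of goblet cell mucus, was at 9999, 8776 and 2309 CPM and at 696, 158 and 1730 CPM (log2 fold change -3.45, SE 1.08, adjusted p = 0.207, edgeR). *Retnlb*, a goblet cell product with activity against worms and bacteria, was at 9.88, 60.7 and 25.2 CPM in f/f and 2.31, 0 and 1.65 CPM in ΔIEC libraries, and it had no count in any of the 6 *Hoil1*+/+ libraries.

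The gasdermin C genes, which encode pore-forming proteins, and the *Sprr2a* genes, which encode small proline-rich proteins, showed the same order. *Gsdmc4* (chromosome 15, 63891264 to 63912297, minus strand) was at 236, 263 and 208 CPM in f/f and 24.3, 7.78 and 51.6 CPM in ΔIEC libraries (log2 fold change -3.17, SE 0.94, adjusted p = 0.205, edgeR). *Gsdmc2* was at 80, 85.1 and 151 CPM and at 9.08, 3.19 and 24.1 CPM, and *Gsdmc3* at 26.6, 42.1 and 43.7 CPM and at 4.36, 0 and 6.27 CPM. In *Gsdmc2* and *Gsdmc3* library 23 was the highest of the 6. *Sprr2a3* (chromosome 3, 92285417 to 92291405, plus strand) was at 157, 235 and 54.7 CPM and at 3.73, 2.46 and 10.9 CPM (log2 fold change -5.16, SE 1.31, adjusted p = 0.182, edgeR). *Sprr2a2* was at 14.9, 23.5 and 1.73 CPM and at 0.105, 0.0806 and 0.99 CPM. These families hold near-identical copies, and the counting could have split their reads, so values of single copies are uncertain. *Chil3*, *Chil4*, *Ccl26* and *Gsdmc* had no count in the 6 libraries, *Retnla* and *Sprr2b* were under the filter, and *Arg1* was at 3.2, 1.71 and 0 CPM and at 2.15, 0.282 and 0 CPM.

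**Figure D3:**
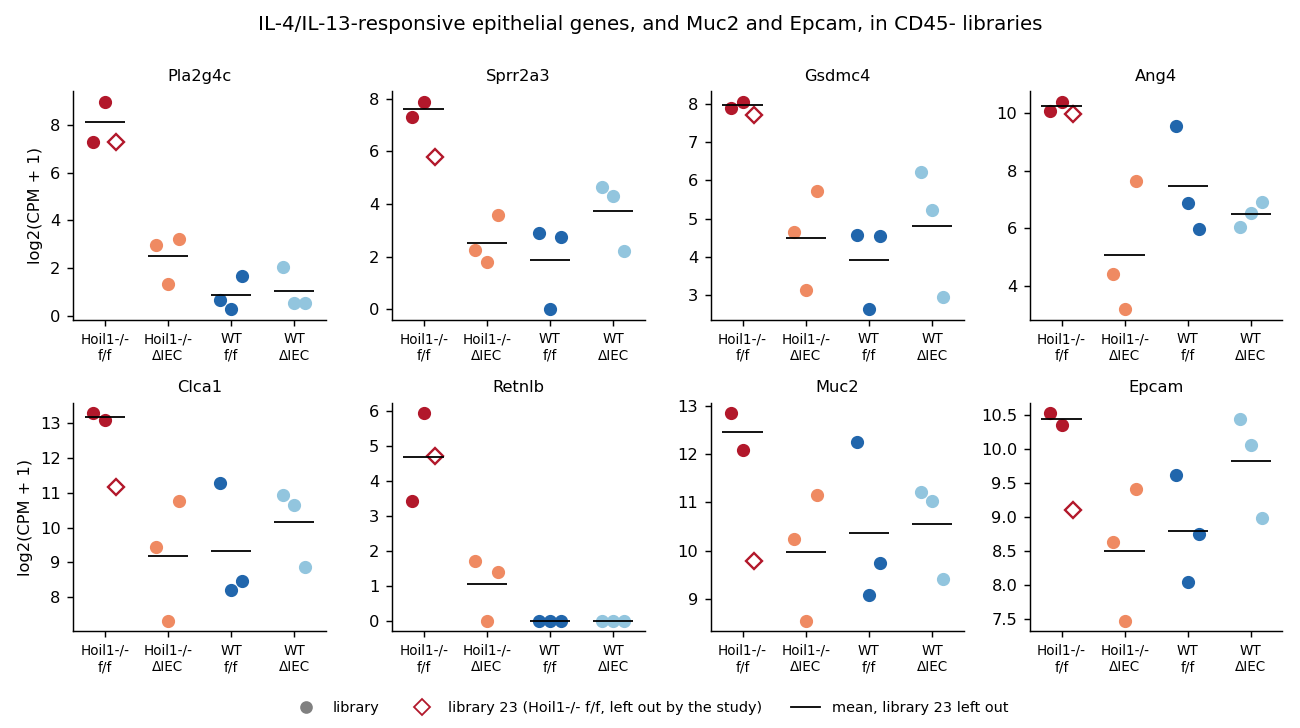
Each panel plots log2(CPM + 1) of 1 gene in the 12 CD45- libraries, by genotype, with means without library 23 as lines. For the first 6 genes all 3 *Hoil1*-/- f/f libraries, library 23 included, sit above all ΔIEC libraries, whereas for *Muc2* and *Epcam* library 23 sits among them.

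On the epithelial scale the 3 f/f libraries lay closer together than in CPM, where the list summed to 11759, 11331 and 3942 in f/f and 769, 182 and 2035 in ΔIEC libraries. Summed over its 18 genes, it was at 1071, 1218 and 1067 counts per 1000 pan-epithelial counts in f/f and at 279, 143 and 349 in ΔIEC libraries. In *Hoil1*+/+ mice the sums were 495, 219 and 144 in f/f and 202, 197 and 185 in ΔIEC libraries. *Clca1* supplied most of these sums, at 910.4, 944 and 625 and at 252, 125 and 297. *Ang4* was at 97.9, 143 and 269 and at 7.31, 6.41 and 34.2, and *Pla2g4c* at 14, 54 and 41.7 and at 2.46, 1.21 and 1.44. Of the 18 genes, 9 were lower in every ΔIEC library than in all 3 f/f libraries on this scale, against 0.724% of all genes tested. With library sizes set to the epithelial counts, a choice made after the data were seen, no gene passed and the median of the tested members was -2.09 without library 23 and -2.81 with it, beside medians of 2.31 and 1.59 for all genes.

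**Figure D4:**
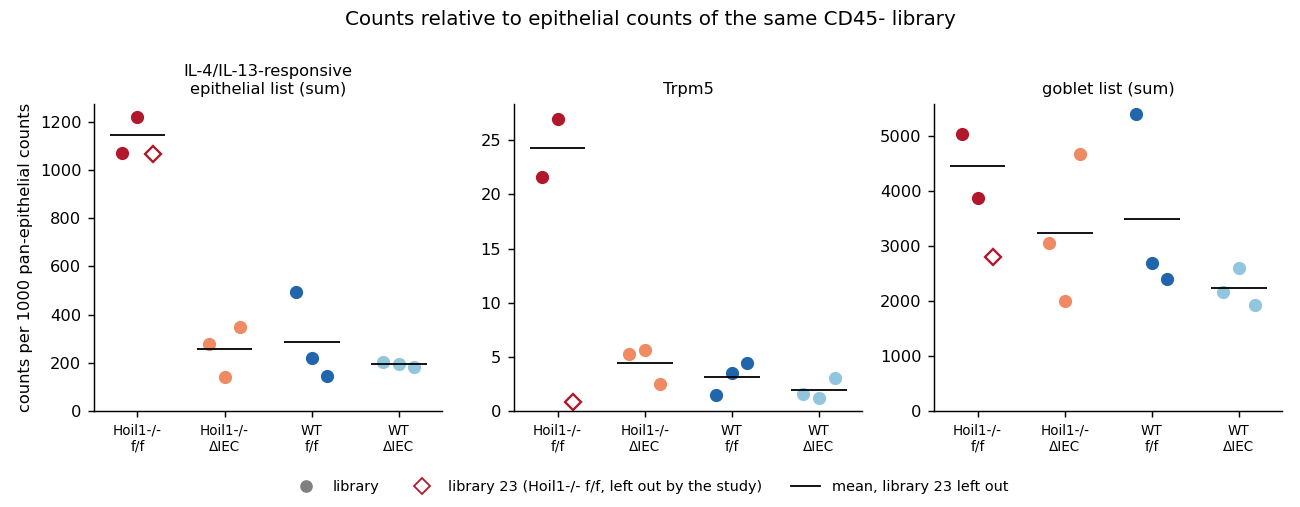
Counts per 1000 pan-epithelial counts of the same library are plotted for the summed IL-4/IL-13-responsive list, for *Trpm5* and for the summed goblet list in the 12 CD45- libraries. The first panel separates the 3 *Hoil1*-/- f/f libraries (1067 to 1218) from the ΔIEC libraries (143 to 349), the second leaves library 23 at 0.831, and the goblet sums overlap.

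The *Sprr2a3* promoter is shown because the same palindrome was in 4 of the 11 promoters held for 10 of the 18 genes (36.4%, against 6.95% of all promoters), 3 of them of near-identical *Sprr2a* copies. It is chr3:92285054-92285353 (plus strand, GRCm38.p6, RefSeq), from 250 bases before to 50 bases after the RefSeq start, with the match TTCTAAGGAA in capitals 176 bases before the start.
Sprr2a3: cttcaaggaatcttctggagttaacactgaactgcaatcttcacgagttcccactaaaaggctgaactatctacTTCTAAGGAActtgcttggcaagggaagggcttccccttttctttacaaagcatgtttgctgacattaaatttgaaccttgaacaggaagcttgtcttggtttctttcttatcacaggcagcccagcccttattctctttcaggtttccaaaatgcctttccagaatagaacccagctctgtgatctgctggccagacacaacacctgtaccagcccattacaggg

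Genes of other epithelial lineages mostly overlapped between the groups once library 23 was included, and none passed in the quasi-likelihood test. The goblet list of 15 genes, which shares *Clca1* and *Retnlb* with the list above, had 8 genes lower in every ΔIEC library than in f/f replicates 1 and 2 and 2 lower than in all 3, namely those shared (16.3% and 4.92% of all genes tested). *Muc2*, the main secreted mucin, was at 7345, 4319 and 883 CPM in f/f and 1200, 372 and 2279 CPM in ΔIEC libraries (log2 fold change -2.19, SE 0.95, adjusted p = 0.274, edgeR). The median of the other 13 goblet genes was -1.41, and 0.24 with the pan-epithelial covariate, so its sign turned with that setting. Per 1000 pan-epithelial counts the 15 genes summed to 5041, 3868 and 2792 in f/f and 3055, 2008 and 4673 in ΔIEC libraries. The lineage factors *Atoh1* and *Spdef* were at 103, 78.5 and 42.4 CPM and at 117, 147 and 83.5 CPM in f/f libraries, and at 18.4, 9.84 and 55.3 CPM and at 26.5, 14.5 and 126 CPM in ΔIEC libraries.

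Of 12 Paneth cell genes, 8 were lower in every ΔIEC library than in f/f replicates 1 and 2 and 3 than in all 3 (16.3% and 4.92% of all genes tested), *Ang4* among the latter. The lysozyme gene *Lyz1* was at 1149, 1630 and 871 CPM in f/f and 83.6, 104 and 1457 CPM in ΔIEC libraries. The ΔIEC library with the highest value, replicate 3, was also the one with the most pan-epithelial RNA. The alpha-defensin genes *Defa17* and *Defa24*, members of a family of near-identical copies, were at 168, 324 and 103 CPM and 2530, 3614 and 1537 CPM in f/f, and at 16, 3.31 and 94.2 CPM and 115, 81.6 and 1284 CPM in ΔIEC libraries. Their adjusted p-values were 0.279 and 0.284 (edgeR).

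Absorptive enterocyte genes did not separate all 6 libraries in CPM. Of 18, 16 were lower in every ΔIEC library than in f/f replicates 1 and 2, and 0 were lower than in all 3 f/f libraries (16.3% and 4.92% of all genes tested). Per 1000 pan-epithelial counts, 14 of 18 were lower in every ΔIEC library than in f/f replicates 1 and 2 (2.80% of all genes tested). On that scale 2 were lower than in all 3 f/f libraries (0.724%). DESeq2 called 9 of the 18 lower in the 11 libraries and 2 in the 12 libraries. The brush border disaccharidase gene *Sis* was at 666, 156 and 25.6 CPM and at 36.7, 13.5 and 54.6 CPM (log2 fold change -3.56, SE 0.71, adjusted p = 0.118, edgeR). The lipid transfer gene *Mttp* was at 559, 365 and 85.4 CPM and at 49.6, 21.4 and 94.8 CPM, and the peptidase gene *Anpep* at 3641, 2506 and 306 CPM and at 225, 135 and 559.7 CPM. Library 23 was within the ΔIEC range for all 3. Of 14 enteroendocrine genes 1 was lower in all ΔIEC libraries than in f/f replicates 1 and 2 (16.3% of all genes tested), the incretin gene *Gip*, at 205, 169 and 39.7 CPM and at 9.92, 12.8 and 141 CPM. Among 12 stem cell and cycling genes, 3 were lower in every ΔIEC library than in all 3 f/f libraries, *Axin2*, *Rnf43* and *Slc12a2*, against 4.92% of all genes tested. *Axin2*, a target of WNT signaling, was at 152, 62.1 and 75.2 CPM and at 42.9, 46.6 and 29.5 CPM (log2 fold change -1.43, SE 0.44, adjusted p = 0.205, edgeR), while the stem cell gene *Lgr5* overlapped at 12.6, 12.1 and 48.8 CPM and at 12.8, 9.07 and 14.7 CPM.

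For the receptor pathway itself, 0 of 16 tested genes passed. Neither cytokine gene had a count in the 6 CD45- libraries. In the CD45+ libraries of the same genotypes *Il13* was at 11.8, 32.5 and 2.85 CPM in f/f and 36.8, 40.1 and 5.05 CPM in ΔIEC mice, and *Il4* at 3.74, 6.74 and 0.836 CPM and at 13.1, 14.7 and 0 CPM. In CD45- cells 6 of the 18 genes were higher in every ΔIEC library than in all 3 f/f libraries, against 10.1% of all genes tested. *Socs3*, a feedback inhibitor of cytokine receptors, was at 38, 104 and 290.1 CPM in f/f and 618, 731 and 504 CPM in ΔIEC libraries (log2 fold change 3.12, SE 0.82, adjusted p = 0.184, edgeR). The common gamma chain gene *Il2rg*, which pairs with IL4Rα in the type I receptor, was at 11.6, 19.2 and 12.8 CPM and at 35.3, 42.5 and 43.2 CPM (log2 fold change 1.38, SE 0.43, adjusted p = 0.205, edgeR). The feedback inhibitor gene *Cish* was at 33.6, 27.4 and 30.7 CPM and at 50.3, 60.7 and 51.3 CPM. *Irs1*, *Jak1* and *Stat3* completed the 6, at 3.66 to 6.26, 99.1 to 141 and 137 to 148 CPM in f/f and 8.91 to 21, 162 to 206 and 153 to 227 CPM in ΔIEC libraries. *Stat6* was at 116, 86.8 and 81.5 CPM and at 119, 133 and 94.8 CPM (log2 fold change 0.19, SE 0.27, adjusted p = 0.728, edgeR), and *Il13ra1*, the partner chain in the type II receptor, at 37.9, 61.7 and 50.9 CPM and at 43.3, 27 and 57.7 CPM. The phosphatase gene *Ptpn6*, which hematopoietic and tuft cells express, was at 109, 116 and 0 CPM and at 6.25, 1.05 and 31.2 CPM.

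Of the other alarmins, none passed. *Il33*, which stromal and endothelial cells of the gut express, was at 6.32, 18.6 and 22.3 CPM in f/f and 26.6, 36.3 and 45.5 CPM in ΔIEC libraries, with no overlap (log2 fold change 1.53, SE 0.64, adjusted p = 0.265, edgeR). *Il18* was at 6.96, 11.5 and 2.67 CPM and at 1.31, 0.524 and 1.65 CPM (log2 fold change -3.01, SE 0.92, adjusted p = 0.205, edgeR). *Tslp* was under 3 CPM in all 6 libraries. Of the linear ubiquitin chain complex that HOIL1 belongs to, *Rnf31* was at 44.7, 54 and 52.3 CPM and at 70.2, 73.1 and 41.2 CPM, and *Sharpin* at 41.6, 26.3 and 34.4 CPM and at 29.9, 28.1 and 25.7 CPM.

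No gene was higher in ΔIEC cells with an adjusted p under 0.05. The genes next by p were taken only where every ΔIEC library was above f/f replicates 1 and 2. Gene models named Gm and a number or ending in Rik were left out. The genes so taken were mostly ones without a count in f/f replicates 1 and 2. Among them the integrin gene *Itgb3*, of endothelial cells and platelets, had the smallest p, at 2.29, 2.07 and 24.3 CPM in f/f and 31.4, 37.6 and 23.4 CPM in ΔIEC libraries (log2 fold change 3.82, SE 0.59, adjusted p = 0.0718, edgeR). Library 23 was within the ΔIEC range. Of the other 9 genes next in order, all had no count in f/f replicates 1 and 2, and *Klhl6*, *Rpgrip1l* and *Frs3* had none in library 23 either. *Klhl6* was at 8.56, 12.2 and 6.1 CPM in ΔIEC libraries. Their mean was 34.2-fold above the floor of 3 counts per library, averaged over the 3 f/f libraries. *Gfra1*, by contrast, was at 39.2 CPM in library 23 and at 4.07 to 5.3 CPM in ΔIEC libraries. The smooth muscle and pericyte list (6 of 10) and the immediate early and heat shock list (6 of 10) also had members higher in every ΔIEC library than in all 3 f/f libraries, against 10.1% of all genes tested. The latter summed to 1735, 2324 and 3654 CPM in f/f and 7562, 8900 and 5668 CPM in ΔIEC libraries. *Junb* was at 306, 335 and 506 CPM and at 1064, 1210 and 723 CPM, and *Acta2*, smooth muscle actin, at 189, 905 and 169.9 CPM and at 911, 1790 and 1777 CPM. Among markers of CD45+ cells left in the gate, the plasma cell genes *Igkc* and *Jchain* were at 1901, 6462 and 759 CPM and 324, 944 and 115 CPM in f/f. In ΔIEC libraries they were at 531, 134 and 450.1 CPM and at 95.8, 19.2 and 54.3 CPM. Of the 9 B and plasma cell genes, 3 were lower in every ΔIEC library than in all 3 f/f libraries, against 4.92% of all genes tested. In the other direction, 1 was higher in every ΔIEC library, against 10.1%. DESeq2 called 1 of the 9 higher and 0 lower, in the 11 and in the 12 libraries. *Cd3d* and *Ms4a1* had no count in any of the 6.

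The same deletion in *Hoil1*+/+ mice (3 f/f and 3 ΔIEC CD45- libraries, 9.0 to 10.3 weeks old) gave no gene past the threshold in either direction, with 724 at an unadjusted p under 0.05. There *Trpm5* was at 9.67, 6.77 and 14 CPM in f/f and 17.2, 10.7 and 9.84 CPM in ΔIEC libraries, close to the *Hoil1*-/- ΔIEC libraries. *Pla2g4c* was at 0.569, 0.201 and 2.21 CPM and at 3.14, 0.441 and 0.464 CPM. The median log2 fold change over the tuft members was -0.19 and that over the IL-4/IL-13-responsive members 0.94. These medians were not scaled to epithelial counts. The pan-epithelial list was at 6633, 1937 and 3186 CPM in f/f and 10845, 9050 and 3225 CPM in ΔIEC libraries. Per 1000 pan-epithelial counts the tuft genes summed to 63.3, 271 and 189.7 in f/f and 40.1, 42.5 and 150.2 in ΔIEC libraries, with overlap. The part of epithelial content in these values was not tested. The enterocyte list, at 17979, 1982 and 2689 CPM in f/f and 50521, 54697 and 3184 CPM in ΔIEC libraries, overlapped between the groups and had a median log2 fold change of 1.87, against -3.20 in *Hoil1*-/- mice without library 23.

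The difference between these effects was tested as an interaction, and no gene passed in the quasi-likelihood test (3409 at an unadjusted p under 0.05), whereas the likelihood ratio test called 587 higher and 636 lower and DESeq2 called 684 and 780. *Trpm5* had the smallest adjusted p among the 7 genes, with a difference of -4.64 on the log2 scale (adjusted p = 0.0791, edgeR), and it passed when no filter on low counts was applied. For *Lrmp* the difference was -5.25 (adjusted p = 0.103, edgeR) and for *Pla2g4c* -6.14 (adjusted p = 0.121, edgeR). Whether the effect differed between *Hoil1*-/- and *Hoil1*+/+ mice at the adjusted threshold thus depended on the test and, for *Trpm5*, on the filter.

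**Figure D5:**
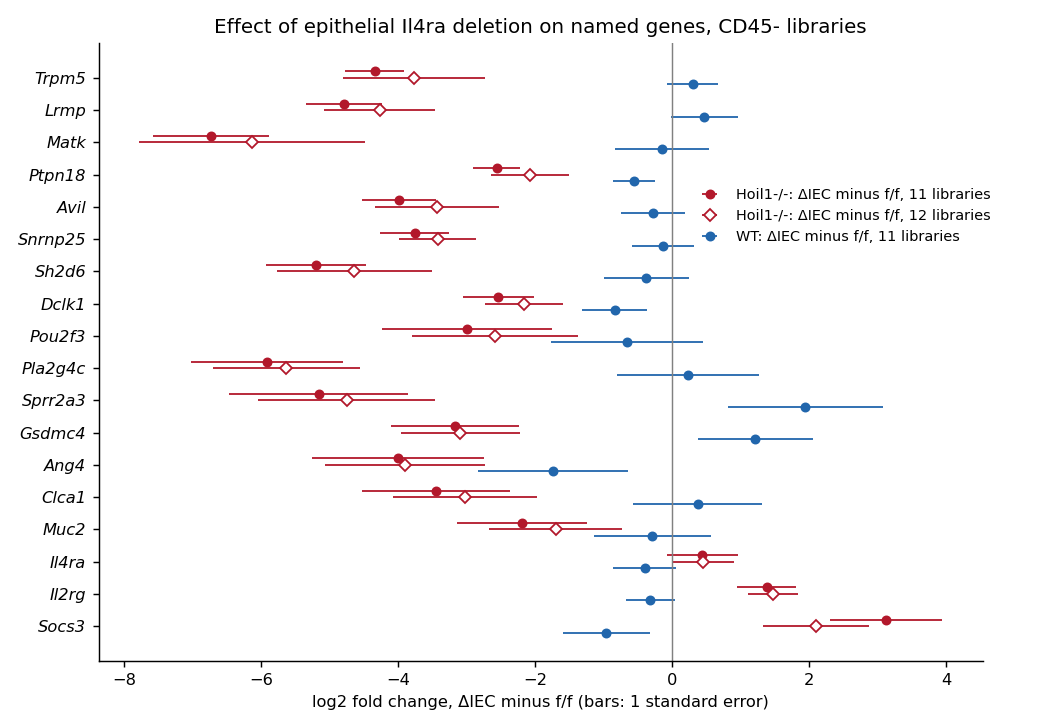
Log2 fold changes for ΔIEC minus f/f are plotted with 1 standard error for 18 genes, in *Hoil1*-/- mice without library 23 (filled red), with it (open red) and in *Hoil1*+/+ mice (blue). The 8 tuft genes and 5 IL-4/IL-13-responsive genes lie between -6.73 and -2.07 in *Hoil1*-/- mice and between -1.74 and 1.94 in *Hoil1*+/+ mice.

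In the CD45+ fraction of the same genotypes, no gene passed over the 10 libraries of the sample list (1197 at an unadjusted p under 0.05) or over all 12 (738). The epithelial RNA carried over into that gate was low, with the pan-epithelial list at 341, 115 and 242 CPM in f/f and 81.4, 47.7 and 75.2 CPM in ΔIEC libraries. The first f/f and the third ΔIEC library there were left out by the study. *Ang4* was at 105, 15.5 and 13.3 CPM and at 2.1, 1.91 and 2.93 CPM (log2 fold change -2.83, SE 0.59, adjusted p = 0.469, edgeR, 10 libraries), and *Pla2g4c* at 36.8, 1.8 and 6.96 CPM against no count in the 3 ΔIEC libraries. *Lrmp*, which leukocytes express, overlapped there, at 50.5 to 64.1 CPM in f/f and 19.1 to 56.6 CPM in ΔIEC libraries.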

How the data were processed

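RNA-Seq was performed on CD45- and CD45+ cells sorted from ileum, with 3 libraries for each of 4 genotypes and both fractions. Per the study's methods, reads were trimmed with cutadapt, aligned to mm10 with STAR and assigned to ENSEMBL genes with featureCounts, and the authors deposited raw counts of 39056 genes, unnormalized. Tool versions, counting options and strand setting are not given in the sources used here. The study describes plotted samples, CD45+ RNA-Seq values among them, as coming from individual mice, while the labels name no animal, and p-values measure the spread between libraries. Symbols (38872 of 39056 genes) and positions came from GENCODE M21 (GRCm38).

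Counts of the 11 CD45- libraries in the study's sample list were filtered with filterByExpr (minimum count 10, minimum total 15), scaled by TMM and tested with the quasi-likelihood test of edgeR 4.0.16 (R 4.3.3), with 1 mean per genotype, two-sided, Benjamini-Hochberg adjustment over all genes tested and a threshold of 0.05. Differences are ΔIEC minus f/f. Printed CPM are TMM-scaled over all 12 libraries of a fraction, and the floor is 3 counts per library, 0.0996 to 0.498 CPM before TMM in the 6 libraries, which covers counting error only. Alternatives were all 12 libraries, only the libraries compared, the likelihood ratio test, exactTest, DESeq2 1.42.0, RLE or total-count scaling, no filter, sex or pan-epithelial covariates, and each library left out. Scaling to epithelial counts and further 12-library fits were added after the data were seen. Only the main quasi-likelihood fit over the 11 libraries was tried on simulated counts, which held no differences in cell content.

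Named were *Rbck1*, *Il4ra* and *Vil1*, and up to 10 genes in each direction with the smallest p and no overlap in the 5 libraries. Gene models named Gm and a number or ending in Rik were left out of these. Also named were 4 genes per tuft list and 3 per other list by p, plus 6 tuft genes in any case, and the tested receptor pathway genes. Other genes were named after their values were seen, and some list members are not reported here. The members and gene lists, written from general knowledge, were chosen with earlier results of these data known. Plots used matplotlib 3.10.9.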

Additional observations from a re-analysis of the deposited data

How the results depend on the processing

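The count of 7 lower and 0 higher genes depended on the test and the libraries. Over all 12 libraries, with only the 5 or only the 6 libraries compared, with the sex covariate, with the pan-epithelial covariate (11 or 12 libraries) and with scaling to epithelial counts (11 or 12 libraries), 0 lower genes passed; with total-count scaling 3 did. The likelihood ratio test called 317 lower and 339 higher, exactTest 229 and 161, and DESeq2 484 and 697. Over 12 libraries the likelihood ratio test called 46 lower and 127 higher and DESeq2 127 and 183. Without the filter 8 genes were lower and 1 higher. Leaving out 1 library gave 0 to 67 lower and 0 to 509 higher genes. Without f/f replicate 2 the counts were 67 and 509, and without f/f replicate 1 they were 8 and 7. Each of these fits has 1 f/f library left, which is assumed to vary like the other groups, so that they say little about stability. The cause of these differences was not tested. For the interaction, the likelihood ratio test gave 587 higher and 636 lower genes, DESeq2 684 and 780, and the fit without the filter 1 lower, *Trpm5*. The comparisons in *Hoil1*+/+ mice and in CD45+ cells stayed at 0 genes with all 12 libraries.

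The 7 genes kept their direction under all alternatives run. Of the 76 named genes tested, 23, none of which passed, changed sign under at least 1 alternative, at most 14 of them under any one. RLE scaling changed no call. The median of all genes moved from 0.17 to 0.40 with total-count scaling and to 2.31 with scaling to epithelial counts. No paired analysis was possible because the labels give no replicate number shared between groups.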
